A study of Mus musculus with 12 samples.

Results

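The genes of the insulin and insulin-like growth factor (IGF) axis were followed in subcutaneous tumors of a mouse pancreatic cancer line in which doxycycline (dox) switches on mutant p53R270H. The axis was taken as the 7 rows of the deposited gene tables whose name is Igf1, Igf2, Igf1r, Igf2r, Insr, Irs1 or Irs2, out of 22630 rows. All 7 passed the filter on counts. The axis is taken here as chosen by expression values of the plus-dox to no-dox contrast, since Igf2 and Irs1 are among genes the study named there. RNA was sequenced from 12 tumors (4 no-dox, 4 plus-dox and 4 off-dox) grown from KCip53-1 cells under the skin of NSG mice, a strain without functional lymphocytes. KCip53-1 is 1 line, sorted for dsRed from the pancreas of a mouse with Ptf1a-Cre, TREp53R270H and R26rtTa/rtTa among its alleles and grown on dox before implantation, and the study describes wild-type Trp53 as lost in the KCip53 lines whose p53 it sequenced. All 3 groups therefore share the alleles of the line, and they differ in dox: none in no-dox, 36 days of dox at 0.2 g/l in plus-dox, and 33 days followed by 3 days without it in off-dox. Dox and the p53R270H it induces cannot be told apart here, as every plus-dox and off-dox tumor carried the transgene. Labels give neither the sex nor the age of the mice, nor which tumors shared a mouse. The study's methods state that NSG mice of both sexes were used and that each mouse received more than 1 subcutaneous tumor. Each p-value below takes tumors as independent and is too small if some of the 12 shared a mouse.

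IGF1 and IGF2 are secreted growth factors that act through the IGF1 receptor, and IGF2 also acts through one form of the insulin receptor. Both receptors are tyrosine kinases that recruit the adaptor proteins IRS1 and IRS2, which pass the signal to PI3K, AKT and mTOR and so to glucose uptake, protein synthesis and survival. The IGF2 receptor does not relay this signal: it takes IGF2 to the lysosome and clears it. In pancreatic tumors the ligands come from stroma as well as from carcinoma cells, and the pancreas is the organ that makes insulin.

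The tumors were sampled whole and unsorted, so fewer cells of a type and less RNA per cell cannot be told apart in any value below. Counted reads ran from 19845923 to 33137609 per tumor. Genes took 88.4% to 89.4% of the mapped reads of no-dox tumors, 82.2% to 87.1% of those of plus-dox and 81.1% to 85.8% of those of off-dox tumors, which separated all 4 no-dox tumors from the other 8. All 6 epithelial markers (such as Krt8 and Epcam) had reads in every tumor, as had the 7 fibroblast, 6 macrophage, 7 skeletal muscle, 6 adipocyte and 5 endothelial markers. The summed RPKM (reads scaled to exon length and to mapped reads) of the epithelial list was highest in no-dox tumors (2138 to 2726), against 1349 to 1791 for plus-dox and 957 to 2396 for off-dox. Trp53 RPKM overlapped between the groups, at 40.1 to 57.4 (no-dox), 40.4 to 56.0 (plus-dox) and 41.6 to 45.4 (off-dox), and the tables do not separate transgene from endogenous reads, so it is no check of the labels. A pair of plus-dox tumors, 3 and 4, stood apart from the other 10 by Xist, and plus-dox tumor 2 and off-dox tumor 4 by Ghr and Stc1. For part of the values that these tumors turn or move by more than 1.5 times, the value without them is also given.

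The stretch of 250 bases before the annotated start is shown for Irs1, the only axis gene for which plus-dox and no-dox values were fully separate, and for Igf1r, the axis gene with the highest mean level. Both lines read 5′ to 3′ on the strand of the gene in the NCBIM37 (mm9) assembly, the build of the deposited tables. Capitals mark every GC box (GGGCGG or CCGCCC, a binding motif of Sp1-type factors) and every core of the insulin response element (CAAAACA or TGTTTTG, a motif of FoxO-type factors).
Irs1, chr1:82288015-82288264, minus strand: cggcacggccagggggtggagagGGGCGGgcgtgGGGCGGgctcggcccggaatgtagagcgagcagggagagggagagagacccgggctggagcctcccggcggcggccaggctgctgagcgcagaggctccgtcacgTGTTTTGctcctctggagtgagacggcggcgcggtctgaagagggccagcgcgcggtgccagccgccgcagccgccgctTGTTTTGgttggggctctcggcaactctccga
Igf1r, chr7:75096893-75097142, plus strand: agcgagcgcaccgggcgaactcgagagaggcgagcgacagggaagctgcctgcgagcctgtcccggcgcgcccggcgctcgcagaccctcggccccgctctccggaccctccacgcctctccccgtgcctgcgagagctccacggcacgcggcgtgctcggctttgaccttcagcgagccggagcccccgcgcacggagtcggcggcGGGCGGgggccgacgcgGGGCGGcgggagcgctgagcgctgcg
Neither window overlapped an annotated exon. The Irs1 window was 72.4% G or C and the Igf1r window 77.6%, against a median of 55.6% over all 22630 genes. The Irs1 window held 2 GC boxes and 2 insulin response element cores on its gene strand. The Igf1r window held 2 GC boxes and no insulin response element core. A GC box lay in 43.0% and an insulin response element core in 5.03% of all windows of this length, and Irs1 was the only one of the 7 axis genes with the latter. A separate FoxO core (GTAAACA or TGTTTAC) lay in no window of the 7 axis genes, and in 2.68% of all windows. All of these matches are letters in a window, not shown binding sites.

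Levels are compared between genes as RPKM, which is per exon length. Averaged over the 12 tumors, Igf1r stood first at 8.14 RPKM, followed by Igf2r at 7.31, Insr at 6.46, Igf1 at 5.03, Irs2 at 3.84, Irs1 at 3.20 and Igf2 at 0.908. Neighbors in this order exchanged places in part of the tumors. Igf1r exceeded Igf2r in 8 of 12 tumors, with a mean difference of 0.836 RPKM ± 1.46 (SD, n = 12). Igf2r exceeded Insr in 10, Insr exceeded Igf1 in 8, Igf1 exceeded Irs2 in 10 and Irs2 exceeded Irs1 in 8 of 12 tumors, and in each of these pairs the SD of the difference was larger than its mean. Irs1 exceeded Igf2 in 11 of 12 tumors, by 2.29 RPKM ± 1.17 (SD, n = 12), the only neighboring pair whose mean difference was larger than its SD. The insulin genes themselves were not detected at this depth, as Ins1 and Ins2 had 0 reads in all 12 tumors, which allows up to 3 reads in a library by counting error alone.

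**Figure D1:**
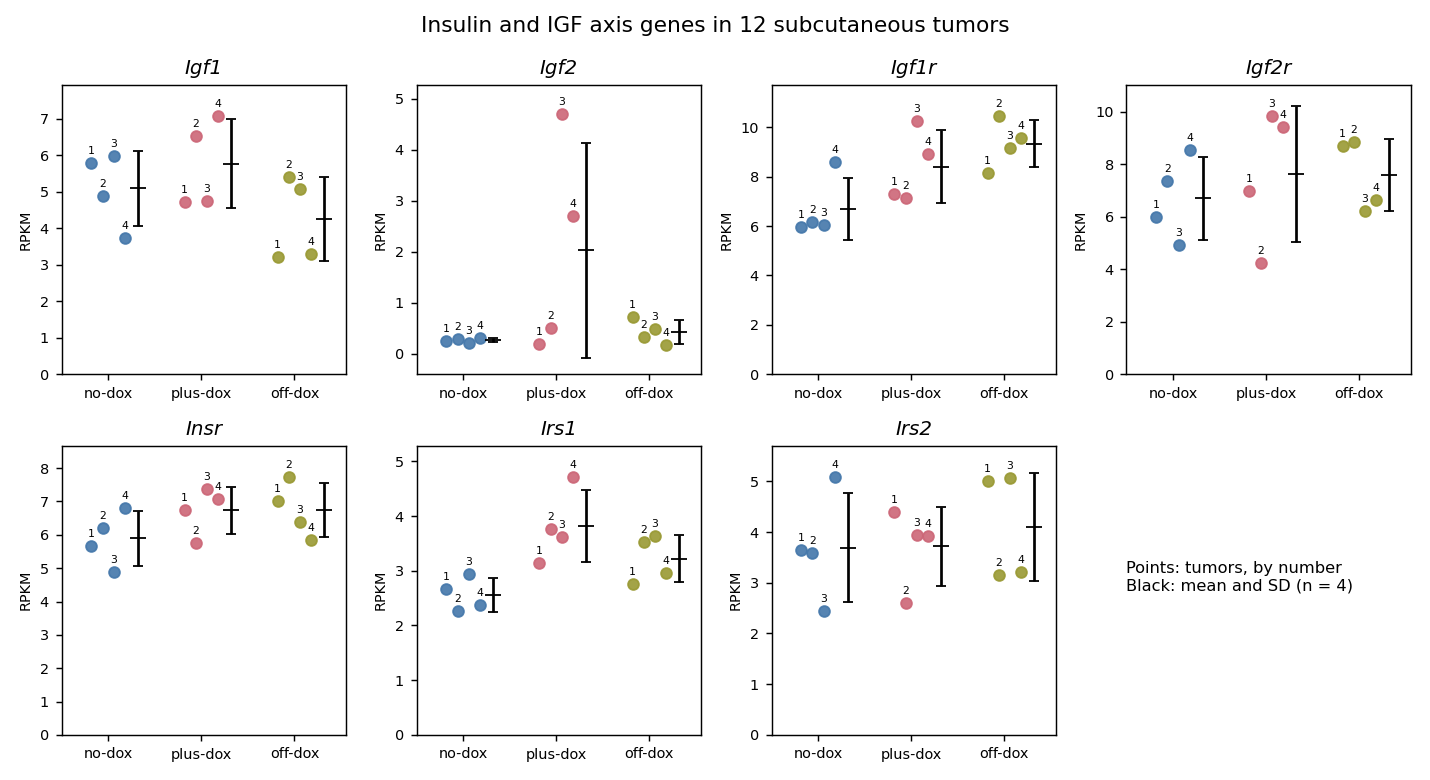
RPKM of the 7 axis genes (vertical axes, separate scales; Igf2 starts below 0 to show its error bar) in each tumor by group; points are tumors with their number, black bars the mean and SD (n = 4). Irs1 is the only gene whose plus-dox tumors (3.15 to 4.72) all lie above the no-dox tumors (2.26 to 2.94), and the highest Igf2 values, 4.71 and 2.71, are those of plus-dox tumors 3 and 4.

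Among the ligands, Igf1, the growth hormone-responsive IGF, was present at similar levels in every group (chromosome 10, 87321801 to 87399792, plus strand, mm9). Its RPKM was 5.78, 4.88, 5.96 and 3.73 in no-dox tumors 1 to 4. It was 4.72, 6.52, 4.74 and 7.07 in plus-dox tumors, and 3.22, 5.41, 5.06 and 3.30 in off-dox tumors. All 3 groups overlapped, the highest value being that of plus-dox tumor 4 and the lowest that of off-dox tumor 1. In the order no-dox, plus-dox, off-dox, group means were 5.09 ± 1.02, 5.76 ± 1.21 and 4.25 ± 1.15 (SD, n = 4 each), and later means follow this order.

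Igf2, the IGF that is expressed from the paternal allele and is best known as a fetal growth factor, was the lowest gene of the axis in 11 of the 12 tumors (chromosome 7, 149836673 to 149846940, minus strand). It had 0.242, 0.289, 0.218 and 0.306 RPKM in the no-dox tumors, the most even group. In the plus-dox tumors it had 0.192, 0.509, 4.71 and 2.71 RPKM. In the off-dox tumors it had 0.728, 0.320, 0.489 and 0.177 RPKM. Plus-dox tumors 3 and 4 lay above all the others, whereas plus-dox tumor 1 lay below all 4 no-dox tumors, so the groups overlapped. These values rest on 26 to 47 reads in no-dox, 22 to 74 reads in off-dox and 19, 69, 717 and 285 reads in plus-dox tumors. In plus-dox tumor 3 the ligands were level, with an Igf1 to Igf2 ratio of 1.01, while the ratio was 12.2 to 27.3 in no-dox tumors. The antisense gene Igf2as overlaps Igf2 on the other strand, and as the libraries do not keep strand, reads of the pair cannot be told apart where they overlap; the tables count at most 6 reads on Igf2as.

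The raised Igf2 went with Xist, the noncoding RNA of the inactive X chromosome. Among 14548 genes with a mean above 0.25 RPKM, Xist had the log2 CPM (counts scaled to library size) profile most like that of Igf2 (Pearson r = 0.965 over 12 tumors, a description in which 2 tumors carry most of the range). Xist was at 4.25 and 4.89 RPKM in plus-dox tumors 3 and 4, and between 0.00418 and 0.0485 RPKM in the other 10 tumors. The Y-linked genes Ddx3y (16.9 to 21.5 RPKM) and Eif2s3y (25.4 to 37.4 RPKM) were expressed in all 12 tumors. Without plus-dox tumors 3 and 4, the plus-dox against no-dox log2 fold change of Igf2 was 0.42 in place of 2.98. The fibroblast marker sum was 2173 and 1993 RPKM in these 2 tumors, ranks 2 and 3 of 12, below the 2976 RPKM of plus-dox tumor 2, where Igf2 was at 0.509 RPKM. Whether the Igf2 and Xist reads came from the same cells was not tested. The other genes closest to Igf2 were Mal2, Ppef1, Bspry and Col12a1 (r = 0.844 to 0.945).

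**Figure D2:**
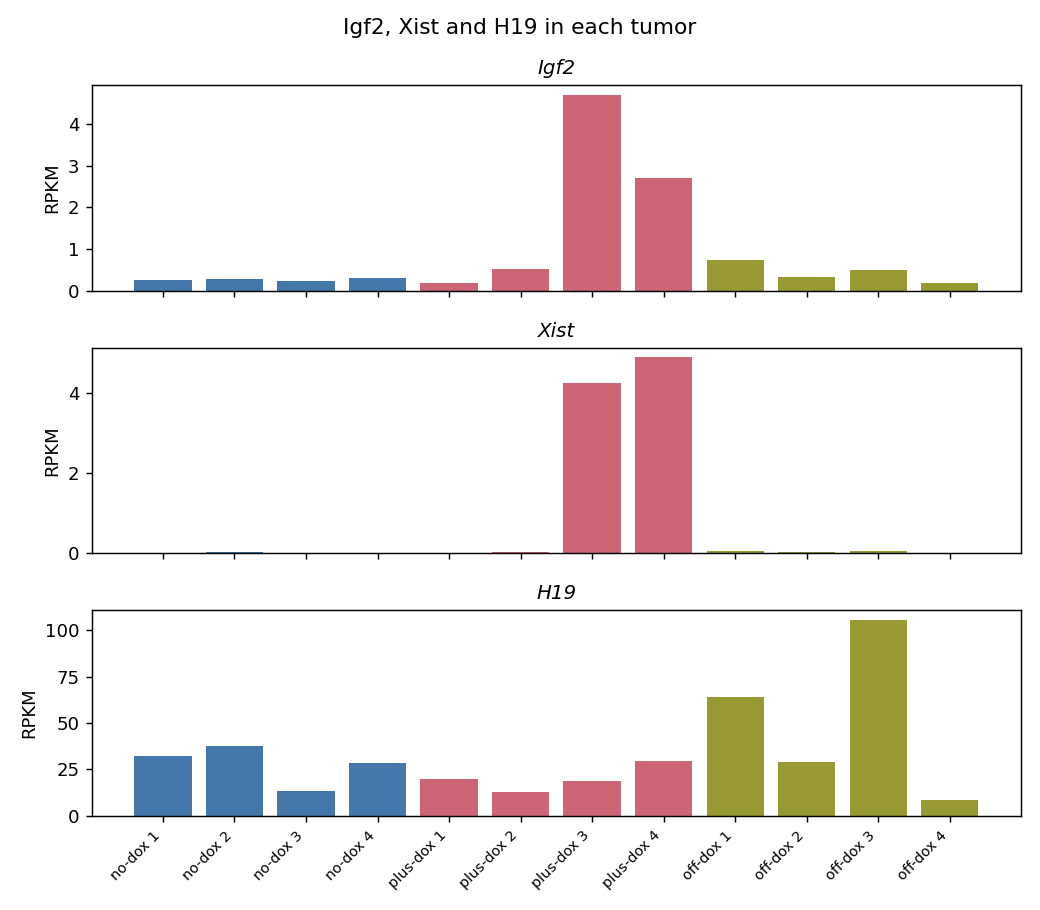
RPKM (vertical axes, from 0) of Igf2, Xist and the Igf2 neighbor H19 in each of the 12 tumors, colored by group. Igf2 and Xist share their highest 2 tumors, plus-dox 3 and 4 (4.71 and 2.71 RPKM for Igf2), whereas H19 is highest in off-dox tumors 3 and 1 (106 and 64.2 RPKM).

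H19, the maternally expressed noncoding RNA that neighbors Igf2 and shares its imprinting control, did not follow Igf2. Its RPKM was 32.3, 37.6, 13.5 and 28.4 in no-dox tumors and 19.9, 12.9, 18.9 and 29.3 in plus-dox tumors. In off-dox tumors it was 64.2, 28.8, 106 and 8.37, which spans both the highest and the lowest value of all. The off-dox to plus-dox log2 fold change was 1.36 (SE 0.57), with an adjusted p of 1 from edgeR's quasi-likelihood test, and the groups overlapped. Without off-dox tumor 3 it was 0.75.

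Among the signaling receptors, Igf1r had the highest mean of the axis in off-dox tumors (chromosome 7, 75097143 to 75378553, plus strand). It had 5.95, 6.16, 6.06 and 8.58 RPKM in no-dox tumors. It had 7.29, 7.14, 10.2 and 8.93 RPKM in plus-dox tumors, and 8.17, 10.5, 9.18 and 9.55 RPKM in off-dox tumors. No-dox tumors 1 to 3 lay below all other tumors, and only no-dox tumor 4 overlapped the plus-dox and off-dox tumors. The means were 6.69 ± 1.27, 8.40 ± 1.47 and 9.34 ± 0.95 (SD, n = 4 each).

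Insr, the receptor of insulin, was even across the tumors (chromosome 8, 3150922 to 3279617, minus strand). Its RPKM was 5.67, 6.22, 4.88 and 6.81 in no-dox tumors, 6.75, 5.75, 7.38 and 7.06 in plus-dox tumors, and 7.02, 7.74, 6.37 and 5.84 in off-dox tumors. The 3 groups overlapped, with means of 5.90 ± 0.82, 6.73 ± 0.70 and 6.74 ± 0.82 (SD, n = 4 each). The ratio of Igf1r to Insr RPKM, a measure of the balance between IGF and insulin receptor messages, was 1.14 ± 0.14 without dox, 1.24 ± 0.13 on dox and 1.4 ± 0.20 after dox (SD, n = 4 each). The lowest ratio was 0.991 in no-dox tumor 2 and the highest was 1.63 in off-dox tumor 4, and the groups overlapped.

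Igf2r, the clearance receptor of IGF2 and a carrier of lysosomal enzymes, was spread widely within every group (chromosome 17, 12875272 to 12962572, minus strand). It had 5.99, 7.37, 4.91 and 8.53 RPKM in no-dox tumors, 6.98, 4.23, 9.83 and 9.43 in plus-dox tumors, and 8.70, 8.85, 6.22 and 6.63 in off-dox tumors. Plus-dox tumors held both extremes: tumors 3 and 4, which had the raised Igf2, were the highest of all 12 and tumor 2 the lowest. Group means were 6.70 ± 1.58, 7.62 ± 2.59 and 7.60 ± 1.37 (SD, n = 4 each).

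The adaptors differed from one another. Irs1, the main docking protein of both receptors, had 2.67, 2.26, 2.94 and 2.37 RPKM in no-dox tumors (chromosome 1, 82229680 to 82288014, minus strand). It had 3.15, 3.76, 3.62 and 4.72 RPKM in plus-dox tumors and 2.76, 3.53, 3.63 and 2.97 RPKM in off-dox tumors. The lowest plus-dox tumor was above the highest no-dox tumor, and the off-dox tumors overlapped both groups. Means were 2.56 ± 0.31, 3.81 ± 0.66 and 3.22 ± 0.43 (SD, n = 4 each). Irs2, the adaptor best known from liver and from insulin-producing cells, overlapped in all groups (chromosome 8, 10986964 to 11008430, minus strand). Its RPKM was 3.65, 3.59, 2.45 and 5.09 in no-dox, 4.40, 2.60, 3.94 and 3.93 in plus-dox, and 5.00, 3.16, 5.06 and 3.21 in off-dox tumors. The Irs1 to Irs2 ratio ran from 0.465 in no-dox tumor 4 to 1.45 in plus-dox tumor 2, and all groups overlapped.

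The first comparison asks what sustained dox did to the axis. As the axis was chosen with this contrast in view, its fold changes here are a description without a test. The log2 fold change of plus-dox over no-dox was 0.58 (SE 0.14) for Irs1, 0.34 (SE 0.17) for Igf1r, 0.20 (SE 0.25) for Igf2r, 0.20 (SE 0.13) for Insr, 0.19 (SE 0.21) for Igf1 and 0.01 (SE 0.24) for Irs2. For Igf2 it was 2.98 (SE 0.81). These values leaned on plus-dox tumors 3 and 4. Without that pair, the log2 fold change of Igf2 was 0.42 (SE 0.54), that of Igf2r turned to -0.27 (SE 0.26), and those of Igf1r and Insr were 0.10 (SE 0.18) and 0.08 (SE 0.15). Irs1 was 0.43 (SE 0.17) without the pair, Igf1 0.14 (SE 0.26) and Irs2 -0.09 (SE 0.32). By edgeR, none of the 7 was differentially expressed by the limits of the study (adjusted p under 0.1, a change above 1.5-fold, a mean above 0.25 RPKM and exons above 250 bp), and 0% of the 17561 genes tested were. At an unadjusted p under 0.05, edgeR marked 2400 genes, or 13.7%, and DESeq2, the tool of the study, found 128 differentially expressed genes without moderated fold changes, of which Igf2 was 1 and the other axis genes were none. Irs1 was the 1 of the 7 axis genes whose 2 groups did not overlap in RPKM, against 7.77% of all genes tested, 4.3% being higher in plus-dox. As Irs1 and Igf2 were named in this contrast, this separation and the DESeq2 call of Igf2 are also descriptions, not support.

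The second comparison sets tumors from which dox had been removed against tumors that never had it. It shares the no-dox tumors with the first. None of the 7 axis genes was differentially expressed, against 1.34% of all genes tested (235 of 17561), and no axis gene had non-overlapping groups, against 11.4%. Igf1r had the lowest p, with a log2 fold change of 0.51 (SE 0.17, edgeR adjusted p = 0.14). Irs1 followed at 0.36 (SE 0.14, adjusted p = 0.19). The remaining log2 fold changes were 0.71 (SE 0.79) for Igf2, 0.22 (SE 0.13) for Insr, 0.21 (SE 0.25) for Igf2r, 0.18 (SE 0.24) for Irs2 and -0.23 (SE 0.21) for Igf1, with edgeR adjusted p-values of 0.34 to 0.70.

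The third comparison asks what changed within 3 days of withdrawing dox, and it shares tumors with both of the others. Again 0 of the 7 axis genes and 0% of all genes tested were differentially expressed by edgeR, with 537 genes, or 3.06%, at an unadjusted p under 0.05 and 6 differentially expressed genes by DESeq2 without moderation. The off-dox to plus-dox log2 fold change was -2.27 (SE 0.79) for Igf2 and 0.29 without plus-dox tumors 3 and 4. It was -0.42 (SE 0.21) for Igf1, -0.22 (SE 0.14) for Irs1, 0.17 (SE 0.17) for Igf1r and 0.16 (SE 0.24) for Irs2, all with an edgeR adjusted p of 1. For Igf2r and Insr it was 0.01 (SE 0.25) and 0.02 (SE 0.13), also with an adjusted p of 1. Without plus-dox tumors 3 and 4, it was 0.48 (SE 0.26) for Igf2r, 0.41 (SE 0.19) for Igf1r, 0.27 (SE 0.32) for Irs2, 0.15 (SE 0.16) for Insr and -0.07 (SE 0.17) for Irs1, and no axis gene was differentially expressed by edgeR. No axis gene had non-overlapping groups, against 1.49% of all genes tested.

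**Figure D3:**
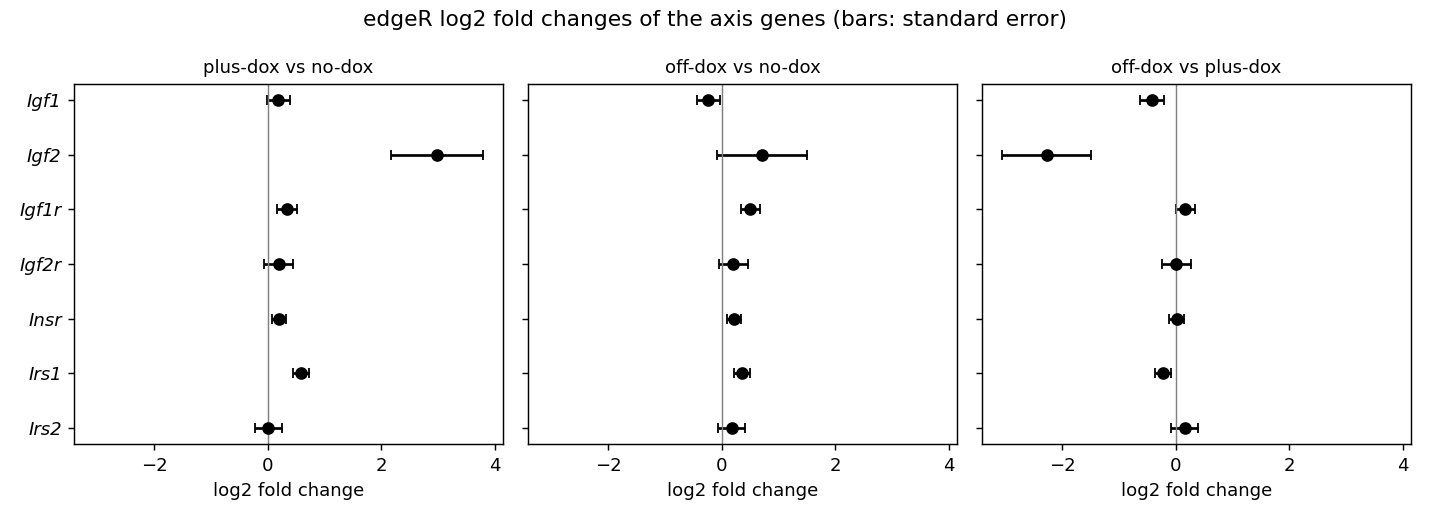
Log2 fold changes from edgeR (horizontal axis, same scale in each panel) of the 7 axis genes in the 3 comparisons, with bars for the standard error. Apart from Igf2, with 2.98 in the plus-dox to no-dox and -2.27 in the off-dox to plus-dox comparison, every value lies between -0.42 and 0.58.

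Transcript length moved with these fold changes. The median exon length of the genes tested was 2627 bases, while the axis genes have long messages, from 4012 bases for Irs2 and 4138 for Igf2 to 9163 for Irs1, 9355 for Insr and 11978 for Igf1r. Among 14548 genes above 0.25 RPKM, the median log2 fold change of plus-dox over no-dox was -0.01. It was 0.28 among the 318 genes at least as long as Irs1, of which 86.5% had a positive value. For off-dox over no-dox the medians were -0.02 over all and 0.38 among those 318 genes, of which 88.4% were positive. Against this median of long genes, the off-dox value of Igf1r (0.51, SE 0.17) was above it by less than 1 SE, Irs1 (0.36) lay just under it and Insr (0.22) lower. In plus-dox tumors Irs1 (0.58) and Igf1r (0.34) were above the median of long genes and Insr (0.20) below it. The value of Igf1r leaned on plus-dox tumors 3 and 4, being 0.10 without both and 0.20 without tumor 3 alone. The median of long genes was not taken without these tumors, so the place of Igf1r against it there is not known. For off-dox over plus-dox the long genes had a median of 0.09. The bounds by length were chosen after the values were seen, and the part of length in the fold changes was not tested.

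**Figure D4:**
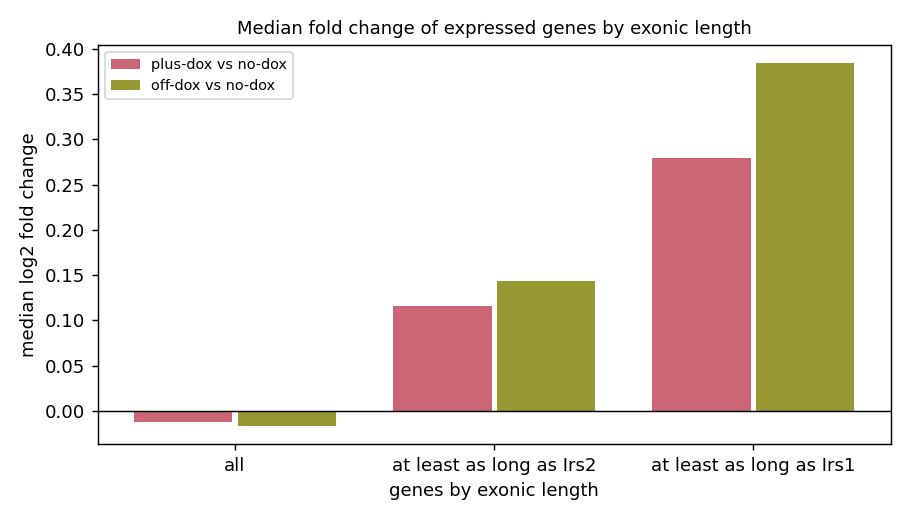
Median edgeR log2 fold change (vertical axis, bars from 0) over no-dox of all 14548 genes above 0.25 RPKM, of the 3865 genes at least as long as Irs2 and of the 318 at least as long as Irs1. Bars for plus-dox tumors go from -0.01 to 0.12 and 0.28, and those for off-dox tumors from -0.02 to 0.14 and 0.38.

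Genes with the most similar profile over the 12 tumors were long for part of the axis. For Igf1r they were Chd2, Papd5, Zc3h13, Rictor and Chd8 (r = 0.957 to 0.967), with exons of 4624 to 9313 bases. For Insr they included Rprd2, Ash1l, Kdm2a and Hnrnpul2 (r = 0.958 to 0.964), of 5726 to 11270 bases. For Igf2r they included Vps13d, Arid5b, Nfx1 and Rere (r = 0.935 to 0.950), and for Irs2 Myo18a, Ptger1, Slc9a8 and Pml (r = 0.907 to 0.924). Irs1 was most like Dennd4a, Miat, Dnm3os, Tacc1 and Slc41a2 (r = 0.884 to 0.906). Igf1 was most like Npr1, Mmp27, Folr2, Gad2 and Tmem8 (r = 0.898 to 0.953), of which Folr2 is a marker of tissue macrophages. These correlations describe tumors that share library depth and composition. The macrophage marker sum was 769 to 1067 RPKM (no-dox), 785 to 984 (plus-dox) and 731 to 1236 (off-dox), and the fibroblast sum was 1068 to 1947, 1528 to 2976 and 1252 to 1477 in the same order, with no marker at 0. Their part in the level of Igf1 was not tested.

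The wider pathway was read from lists of 69 further genes, 68 of them in the tables and 65 with enough counts to test. In plus-dox against no-dox tumors, 0 of the 65 were differentially expressed, 8 were higher and 1 was lower at an unadjusted p under 0.05 (13.8%, against 13.7% of all genes, 8% higher and 5.67% lower), and their median log2 fold change was 0.16 against 0.01 over all genes tested. The groups did not overlap for 6 of the 65, all higher in plus-dox tumors (9.23%, against 4.3% of all genes in that direction and 7.77% in either). In off-dox against no-dox tumors, 1 was differentially expressed and higher, against 1.03% of all genes in that direction, and 9 were higher and 1 was lower at that p (15.4%, against 20.4% of all genes, 10.9% higher and 9.48% lower), with a median of 0.09 against 0.01. The groups did not overlap for 6 genes that were higher and 4 that were lower in off-dox tumors (15.4% in all, against 4.99% and 6.4% of all genes in those directions). In off-dox against plus-dox tumors, none was differentially expressed and 1 was higher at such a p (against 1.25% of all genes), with a median of -0.03 against 0.00 over all genes. There 1 gene of the 65, lower in off-dox tumors, had groups that did not overlap (1.54%, against 1.49% of all genes in either direction). Counted in either direction, the shares by p were near or below those of all genes tested. By direction, in both comparisons with no-dox, the share of higher genes was above that of all genes. The share of lower genes was below it. These differences in share were not tested, and shares by direction were not taken for genes of like length. Of the 65, 46 had a positive log2 fold change in plus-dox and 40 in off-dox over no-dox. Among the 3865 genes at least as long as Irs2, 68.6% and 69.3% were positive, against 48.5% and 47.8% of all 14548 above 0.25 RPKM.

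**Figure D5:**
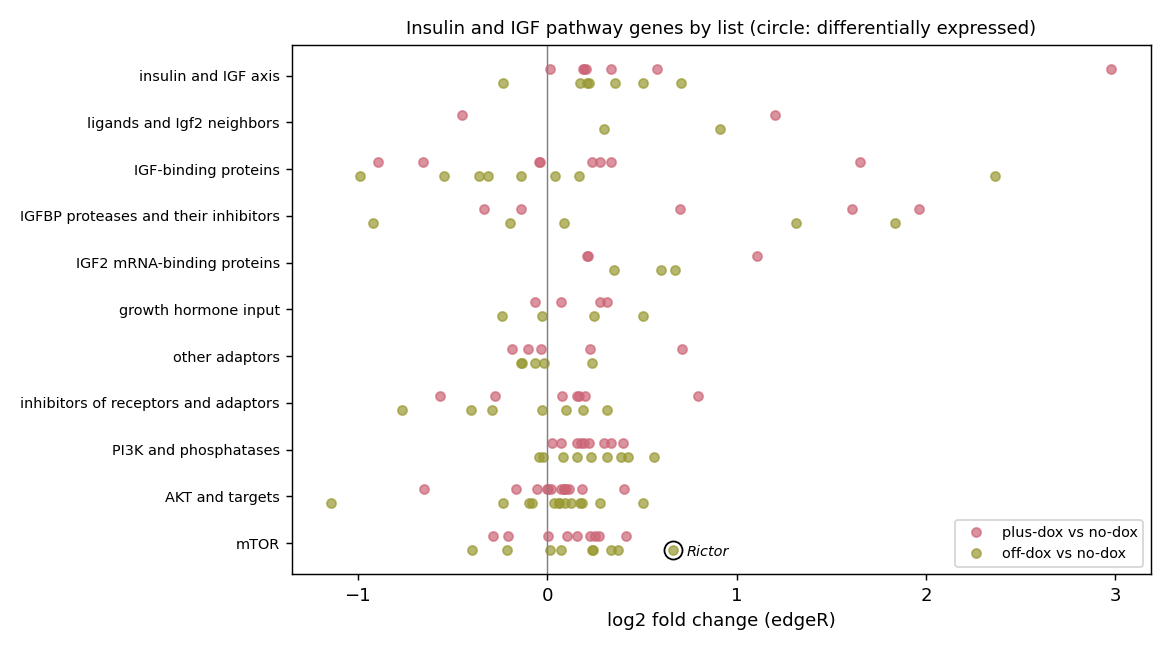
Log2 fold changes (horizontal axis, edgeR) over no-dox of the axis genes and of the pathway genes by list, 1 point per gene, for plus-dox and off-dox tumors; the circle marks a differentially expressed gene. Rictor, at 0.66 in off-dox tumors, is the only circled gene.

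The IGF-binding proteins hold IGFs in extracellular fluid and set how much is free, but message levels do not show how strongly each binds. Of the list of 8, which includes Igfals, 0 had an unadjusted p under 0.05 in any comparison. The messages of Igfbp1 to Igfbp7 were together far more abundant than those of the ligands. Their summed level averaged 1018 RPKM ± 93.5 (no-dox), 1109 ± 138 (plus-dox) and 921 ± 298 (off-dox; SD, n = 4 each), and Igfbp3, Igfbp4 and Igfbp7 made up 91.7% to 98.2% of it. Igfbp7 had 557, 452, 433 and 497 RPKM in no-dox, 514, 443, 470 and 438 in plus-dox, and 517, 288, 272 and 403 in off-dox tumors. Igfbp3, the main carrier in serum, had 321, 271, 342 and 278 RPKM in no-dox, 325, 581, 311 and 299 in plus-dox, and 318, 260, 163 and 582 in off-dox tumors. Its single high tumors were plus-dox 2 and off-dox 4. Among the proteases that cut these carriers and their inhibitors, Stc1, an inhibitor of the protease PAPP-A, was high in the same tumors, at 49.0 RPKM in plus-dox 2 and 28.5 in off-dox 4 against 2.98 to 6.32 elsewhere. Htra1, a secreted protease that can cleave IGF-binding proteins, ranged from 36.3 to 88.3 RPKM, with its lowest value in off-dox tumor 4. Without plus-dox 2 and off-dox 4, no axis gene was differentially expressed in any comparison.

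The growth hormone receptor Ghr, whose signaling raises Igf1 in liver, was again highest in these tumors, at 65.5 RPKM in plus-dox 2 and 80.7 in off-dox 4, whereas the other 10 had 15 to 42.6. Igf1 was at 6.52 and 3.30 RPKM in the same pair, high in one and low in the other. Jak2, the kinase bound to that receptor, ranged from 13.2 to 20.9 RPKM. Of the 4 genes of this list, none had an unadjusted p under 0.05 in any comparison. The proteins that bind Igf2 mRNA and other transcripts had 1 of 3 genes with such a p in each comparison against no-dox. Igf2bp3 was at 0.162 to 0.252 RPKM in no-dox and 0.284 to 0.762 in plus-dox tumors (log2 fold change 1.11, SE 0.34, edgeR adjusted p = 0.32). Its highest value was that of plus-dox tumor 2, without which the log2 fold change was 0.67. Igf2bp1 had a log2 fold change of 0.60 (SE 0.23, adjusted p = 0.18) in off-dox over no-dox tumors, and Igf2bp2, the most abundant of the 3 at 8.13 to 16.7 RPKM, one of 0.35 (SE 0.22, edgeR adjusted p = 0.37). Insrr, a receptor related to Insr, was under 0.075 RPKM in every tumor.

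At the level of the receptors' other adaptors, Shc1 and Grb2, which lead to Ras, were even across the tumors, at 40.6 to 52.1 and 33.9 to 41.6 RPKM. None of the 5 tested had an unadjusted p under 0.05 in any comparison. Of 7 genes that restrain the receptors or adaptors, Grb10 alone had such a p, in plus-dox over no-dox tumors (log2 fold change 0.80, SE 0.26, edgeR adjusted p = 0.33). Its RPKM was 4.25, 3.25, 5.03 and 2.79 in no-dox and 4.41, 10.3, 5.06 and 6.66 in plus-dox tumors, so the groups overlapped, and without plus-dox tumor 2 the log2 fold change was 0.49. Socs3, a feedback inhibitor of cytokine and insulin signaling, ranged from 25.2 to 39.6 RPKM and the receptor phosphatase gene Ptprf from 11.2 to 36.0 RPKM.

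Among PI3K subunits and the phosphatases that oppose them, 9 of 9 had a positive log2 fold change in plus-dox over no-dox tumors, 1 with an unadjusted p under 0.05, and 7 of 9 in off-dox over no-dox tumors, 3 with such a p. Positive values in plus-dox over no-dox made up 48.5% of all 14548 genes above 0.25 RPKM and 68.6% of the 3865 genes at least as long as Irs2. In off-dox over no-dox they made up 47.8% and 69.3%. Of all genes tested, 13.7% in plus-dox and 20.4% in off-dox over no-dox had such a p, 8% and 10.9% being higher. The gene with such a p in plus-dox tumors, Inppl1, encodes the phosphatase SHIP2, which removes the 5-phosphate from the product of PI3K. Inppl1 had 19.7, 21.5, 18.9 and 19.7 RPKM in no-dox, 22.8, 26.4, 24.6 and 23.7 in plus-dox, and 23.2, 23.6, 26.2 and 24.3 in off-dox tumors. Every no-dox tumor lay below the other 8, with log2 fold changes of 0.30 (SE 0.09, edgeR adjusted p = 0.32) for plus-dox and 0.32 (SE 0.09, adjusted p = 0.0996) for off-dox, below the 1.5-fold limit. Pik3r2, a regulatory subunit, stayed within 20.7 to 29.6 RPKM, and the catalytic subunit gene Pik3cd had a log2 fold change of 0.57 (SE 0.18, adjusted p = 0.13) in off-dox over no-dox, and 0.34 without off-dox tumor 3, which had 9.54 RPKM against 5.37 to 5.68 in the other off-dox tumors. In the AKT list, Akt1 led at 72.9 to 96.7 RPKM, and Slc2a1, the glucose transporter GLUT1, ranged from 44.4 to 122 RPKM without order by group.

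The mTOR list held the only differentially expressed gene of the pathway. Rictor, the subunit that defines mTOR complex 2, the kinase that completes the activation of AKT, had 5.41, 5.49, 5.85 and 7.19 RPKM in no-dox tumors (chromosome 15, 6658381 to 6750400, plus strand). It had 7.13, 6.97, 9.50 and 8.10 RPKM in plus-dox and 8.64, 10.9, 9.05 and 8.64 RPKM in off-dox tumors. All off-dox tumors lay above all no-dox tumors, and plus-dox tumors overlapped both. The log2 fold change was 0.66 (SE 0.15, edgeR adjusted p = 0.083) in off-dox over no-dox, 0.42 (SE 0.15, edgeR adjusted p = 0.33) in plus-dox over no-dox and 0.25 (SE 0.15, edgeR adjusted p = 1) in off-dox over plus-dox. This call was lost in 9 of the 12 fits that left out 1 tumor (all but plus-dox 1, plus-dox 2 and off-dox 1), with edgeR adjusted p of 0.106 to 0.218. It was also lost without plus-dox 3 and 4, where the plus-dox over no-dox value was 0.23 and the off-dox over plus-dox value 0.44. Rictor has 9313 bases of exons, and 7.55% of the 318 genes at least as long as Irs1 were differentially expressed in this comparison against 1.61% of all 14548 above 0.25 RPKM.

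In the same list and comparison, 4 of the 9 genes tested were higher and 1 was lower at an unadjusted p under 0.05, against 10.9% and 9.48% of all genes tested. The genes of the complex that restrains mTOR complex 1 were among them, Tsc1 at 0.37 (SE 0.09, edgeR adjusted p = 0.090) and Tsc2 at 0.34 (SE 0.10, edgeR adjusted p = 0.11), both below 1.5-fold. Rheb, the small GTPase that this complex switches off and that activates mTOR complex 1, went the other way at -0.21 (SE 0.10, edgeR adjusted p = 0.23), with 63.8 to 77.3 RPKM in no-dox and 56.2 to 62.2 in off-dox tumors, which did not overlap. The 4 higher genes had exons of 5569 (Tsc2), 7697 (Tsc1), 8595 (Mtor) and 9313 bases (Rictor), and the lower gene, Rheb, had 1521. In this comparison an unadjusted edgeR p under 0.05 was held by 25.7% of the 3865 genes at least as long as Irs2. Among the 318 genes at least as long as Irs1 it was 57.5%. The part of length in this list was not tested. Eif4ebp1, the translation repressor that mTOR complex 1 phosphorylates, was 44.5 to 75.9 RPKM without order by group. The RNA data give levels of messages, not of phosphorylated or active proteins.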

How the data were processed

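PolyA+, non-strand-specific RNA libraries of 12 tumors were sequenced by the authors as 50-bp single-end reads. They mapped the reads to mm9 with TopHat (version 1.4.1, with Bowtie 0.12.8, CASAVA 1.8.2 and bedtools 2.16.2 in the submitters' processing notes). They condensed the RefSeq models to 1 per gene. The deposited tables hold estimated counts from base-wise coverage of unambiguous exonic spans, some of them fractional, and the authors' RPKM per exon length and total mapped reads. RPKM values are shown as deposited.

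Counts were rounded and fitted with edgeR (version 4.0.16, TMM, quasi-likelihood test, 1 fit of 3 groups, genes with at least 10 counts over the 12 tumors). P-values were adjusted by Benjamini-Hochberg over 17561 genes. Genes were called differentially expressed at an adjusted p under 0.1, above 1.5-fold, above a mean of 0.25 RPKM and above 250 bp. Positive log2 fold changes stand for a higher level in the first group named. Likeness used Pearson r of log2 CPM with a prior count of 2. Alternatives were DESeq2 (version 1.42.0), RLE scaling, other filters, a limit of 0.05, 8-tumor fits, a replicate block and each tumor left out. On simulated plus-dox and no-dox counts of 17385 genes, 200 of them shifted by a log2 value of 2, edgeR recovered 89% of the shifted genes, and 6.81% of its calls were false. The shifted genes were drawn from those with higher counts only, and calls there used the adjusted p alone. Smaller shifts, such as those of most axis genes, were not simulated, so their recovery is not known. No library was a copy of another of its group by a chi-square comparison of counts, and pairs across groups were not compared.

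The 7 axis genes and the pathway and marker lists were chosen with earlier results of these data known. Named genes were all axis genes, the 2 genes of each list with the highest mean RPKM and every list gene called. Igf2bp3, Grb10, Pik3cd, Tsc1, Tsc2, Xist, Ddx3y and Eif2s3y were named after their values were seen. Pdk1 in the AKT list is the mouse symbol of pyruvate dehydrogenase kinase 1, and the kinase upstream of AKT is Pdpk1. Promoter windows came from the NCBIM37 genome. Some genes and alleles that these rules cover are not reported here.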

Additional observations from a re-analysis of the deposited data

Results flagged for a closer look

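In 11 of 84 groups of 4 tumors, 1 tumor stood apart from the other 3 by Dixon's criterion at the 95% level, where chance gives about 1 in 20 groups. In the axis this was Igf1r alone, with 8.58 RPKM in no-dox tumor 4 against 5.95 to 6.16 in the other no-dox tumors. Socs3 was high in the same tumor, at 39.6 RPKM.

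Plus-dox tumor 2 was set apart by high Stc1 (49.0 RPKM), Ghr (65.5 RPKM) and Igfbp3 (580.5 RPKM) and by low Ptprf (11.2 RPKM). Off-dox tumor 4 was set apart by the first 2 of these genes, Stc1 (28.5 RPKM) and Ghr (80.7 RPKM). The other tumors set apart were no-dox 3 for Stc1 (6.32 RPKM), plus-dox 4 for Htra1 (83.1 RPKM) and off-dox 3 for low Slc2a1 (50.1 RPKM).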

How the results depend on the processing

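None of the 7 axis genes was differentially expressed in off-dox against no-dox or in off-dox against plus-dox under any of 22 alternatives. In plus-dox against no-dox, Igf2 passed the limits in the 2 DESeq2 fits only, where moderation took its log2 fold change to 0.99. After leaving out both Xist-bearing plus-dox tumors, chosen after seeing the data, it was 0.42, and that of off-dox over plus-dox reversed to 0.29. The same exclusion took Igf2r from 0.20 to -0.27 and Igf1r from 0.34 to 0.10 in plus-dox over no-dox, and Igf2r from 0.01 to 0.48 in off-dox over plus-dox. Leaving out plus-dox tumor 2 and off-dox tumor 4, also chosen after seeing the data, took Igf2r in off-dox over plus-dox to -0.13. In that comparison it took Igf1 from -0.42 to -0.25 and Igf1r from 0.17 to 0.08. In plus-dox over no-dox it took Igf2r from 0.20 to 0.39, Igf1 from 0.19 to 0.11 and Irs2 from 0.01 to 0.15. Igf1 in off-dox over no-dox went from -0.23 to -0.14. Leaving out single tumors gave -0.19 to 0.20 for Igf2r and -0.053 to 0.094 for Insr in off-dox over plus-dox, and -0.13 to 0.23 for Irs2 in plus-dox over no-dox.

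The pathway count of 1 in off-dox against no-dox, Rictor, was 0 with the replicate block, with 8 tumors, at an adjusted p under 0.05 and without both Xist-bearing tumors, 3 without plus-dox 2 and off-dox 4, and 0 to 5 with single tumors left out. The whole-table count of 235 there was 615 with DESeq2, 396 with moderated DESeq2, 122 without a filter, 365 with 10 counts in every tumor, 0 at an adjusted p under 0.05, 0 with the replicate block, 3 with 8 tumors, 11 without both Xist-bearing tumors, 471 without plus-dox 2 and off-dox 4, and 0 to 789 with single tumors left out. Some of these settings used fewer samples or a stricter limit, and counts with fewer tumors went both down and up. The cause of these changes was not tested. In plus-dox against no-dox the main count of 0 became 128 and 90 with DESeq2 without and with moderation and 0 to 3 with single tumors left out. In off-dox against plus-dox it became 6 and 4, and 0 to 1. Same-numbered tumors did not deviate together on average (mean r -0.088 over 12 pairs, 0.043 over 36 others). Single pairs ran from -0.45 to 0.57 and from -0.68 to 0.67, so these means cannot show whether the numbers pair tumors.

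Igf2 rests on 19 to 74 reads in 10 of the tumors, so differences among these were hard to detect at this depth. The share of reads counted on genes separates the no-dox group from the others, and no comparison with it could be repeated within like shares.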
